A study of Drosophila melanogaster with 21 samples.

Results

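The genes described here are 41 ion channel and transmitter receptor genes of Drosophila melanogaster, out of 17559 genes measured in 21 single fly heads. They are 23 voltage-gated and other channel genes with their partner proteins, and 18 genes for subunits of receptors that open when a transmitter binds. The genes were taken from a list of names, matched to the deposited identifiers by current symbol or synonym, and kept if they had an RPKM (reads relative to the exon length of the gene and to the depth of the library) of at least 1 in at least 5 heads. All 41 were found and all 41 passed, each in all 21 heads. The list was drawn up by function and not by any measured change, although earlier results of these data were known by then. The identifier under which para was deposited is not in the current name table, and it was matched as the sole unnamed identifier whose length, as recovered from the RPKM steps, equals the summed exons of para.

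The heads came from 4 groups of female flies, and each polyA library was made from the head of 1 fly. There were 5 heads of fed flies that were not trained, 5 of starved flies that were not trained, 6 of starved flies collected 1 hour after they were trained to associate an odor with sucrose, and 5 of starved flies collected 4 hours after that training. Trained flies therefore differ from fed flies in food deprivation, odor, sugar and elapsed time, and from starved flies in odor, sugar and elapsed time, so the effects of these cannot be told apart here. The genotype of the flies in this experiment was not given in the sources used here. Reads on genes, recovered from the RPKM values, numbered 36019296 to 67792568 per head.

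Voltage-gated channels open when the potential across the membrane changes, and together they shape the action potential. Sodium channels carry its rise, potassium channels end it and set the rate of firing, and calcium channels couple it to transmitter release. In the fly brain acetylcholine is the main fast excitatory transmitter and acts on nicotinic receptors, GABA and glutamate open chloride channels that inhibit, and histamine is the transmitter of photoreceptors. Changes of excitability in olfactory and mushroom body neurons accompany odor memory in flies, which is why these genes are of interest in heads of trained flies.

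The median level was 40.6 RPKM for the channel genes and 17.3 RPKM for the receptor genes, against 12.0 RPKM for all genes tested. Some of the 41, such as Grd at 6.06 RPKM, lay under the latter. On the deposited scale these genes differed little among groups. Of the 41 genes, Grd fell 4 hours after training relative to starved heads and KCNQ rose 1 hour after training relative to fed heads, and no other gene of the 41 passed limma's adjusted threshold in any of 6 comparisons. What varied more was the level of the whole set from head to head, above all among fed heads. It varied together with the markers of neurons. Among fed heads it went in the reverse order of the total RPKM of the head, and among starved heads nearly so. The levels are given first, then the composition of each family, then the comparisons.

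The sodium channel gene para, which encodes the pore of the action potential, averaged 61.1 RPKM over the 21 heads, and tipE, whose protein is an auxiliary subunit of this channel, averaged 14.7 RPKM. Of the potassium channels of the Shaker type among the 41 genes, Shab (a delayed rectifier) was the most abundant at 72.4 RPKM. It was ahead of Sh (a fast inactivating channel) at 50.3, Shaw at 27.1 and Shal (the main A-type channel of neuronal cell bodies) at 25.9 RPKM. Shawl, a related gene outside the 41, averaged 187 RPKM in fed heads and 73.6 RPKM 4 hours after training. RPKM is per length, so that levels of different genes can be set side by side, within a limit. The libraries do not keep the strand, and how reads on shared exons were counted was not established here. A level can be too high if it includes reads of a gene that shares exons. It can be too low if reads on shared exons were left out. Beside the genes described below, the shared part of the exonic bases was 31.3% for Lcch3, 19.0% for tipE, 15.3% for nAChRalpha4 and 14.6% for sei. The gene that shares exons with tipE, CG18675, had a mean of 192 RPKM in fed heads, where tipE had 14.05 RPKM. The calcium-activated potassium channels slo and SK averaged 75.8 and 42.4 RPKM.

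The 3 highest of the 23 listed channel genes were qvr, slo and Shab. The level of qvr, whose small membrane-anchored protein (also called Sleepless) binds Shaker channels and promotes sleep, was 142, 103, 127, 141 and 114 RPKM in fed heads, 126, 116, 138, 139 and 124 RPKM in starved heads, 118 to 126 RPKM in heads 1 hour after training and 140, 127, 120, 132 and 128 RPKM in heads 4 hours after training. The groups overlapped throughout. Hk, the beta subunit of Shaker channels, averaged 42.6 RPKM. The ether-a-go-go family member eag averaged 21.9 RPKM, its relative sei 33.0 RPKM, and KCNQ, whose mammalian relatives carry a slow potassium current that limits repetitive firing, 61.0 RPKM.

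Of the calcium channels, the T-type gene Ca-alpha1T was the highest at 55.9 RPKM, above cac (the channel of presynaptic active zones) at 41.4 and the L-type gene Ca-alpha1D at 34.1 RPKM. Ih, a cation channel that opens when the membrane is hyperpolarized, averaged 38.7 RPKM. The sodium leak channel na averaged 20.1 RPKM, and unc79 and unc80, the large proteins on which this channel depends, averaged 51.1 and 40.6 RPKM. Each of these partners was thus more abundant per length than the channel itself. The 3 lowest channel genes were Irk1 at 5.88, Irk3 at 9.17 and tipE, while Irk2 averaged 34.6 RPKM, and these 3 Irk genes encode the inward rectifier potassium channels of the fly.

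The receptor genes spanned a wider range. The 3 highest were nAChRbeta1 at 205 RPKM, a nicotinic subunit, GluClalpha at 80.7 RPKM, the glutamate-gated chloride channel, and nAChRalpha6 at 76.8 RPKM. The 3 lowest were nAChRalpha3 at 6.01, Grd at 6.06 and GluRIB at 6.85 RPKM. Between these lay the GABA receptor Rdl at 61.3 RPKM, Lcch3 at 25.9, the NMDA receptor subunits Nmdar1 and Nmdar2 at 15.6 and 11.8, the histamine-gated chloride channel HisCl1 at 9.61 and the AMPA-type subunit GluRIA at 9.34 RPKM. The other nicotinic subunits averaged 46.2 RPKM for nAChRalpha7, 34.8 for nAChRalpha5, 30.1 for nAChRalpha4, 18.3 for nAChRalpha2, 16.2 for nAChRbeta2 and 8.25 for nAChRalpha1.

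The order of the levels hardly depended on the group. Ranked by group mean, the first 12 receptor genes, nAChRbeta1 down to Nmdar2, held the same rank in each of the 4 groups, and no receptor gene moved by more than 2 ranks. Among channel genes the largest shift was 4 ranks, for Ih, which ranked 10 in fed heads, 14 in starved heads and 13 in both trained groups. KCNQ ranked 7 in fed heads and 4 in the other groups. Many neighbours in this order, such as Hk and SK or para and KCNQ, lay within the spread of single heads and are not ordered by these data.

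**Figure D1:**
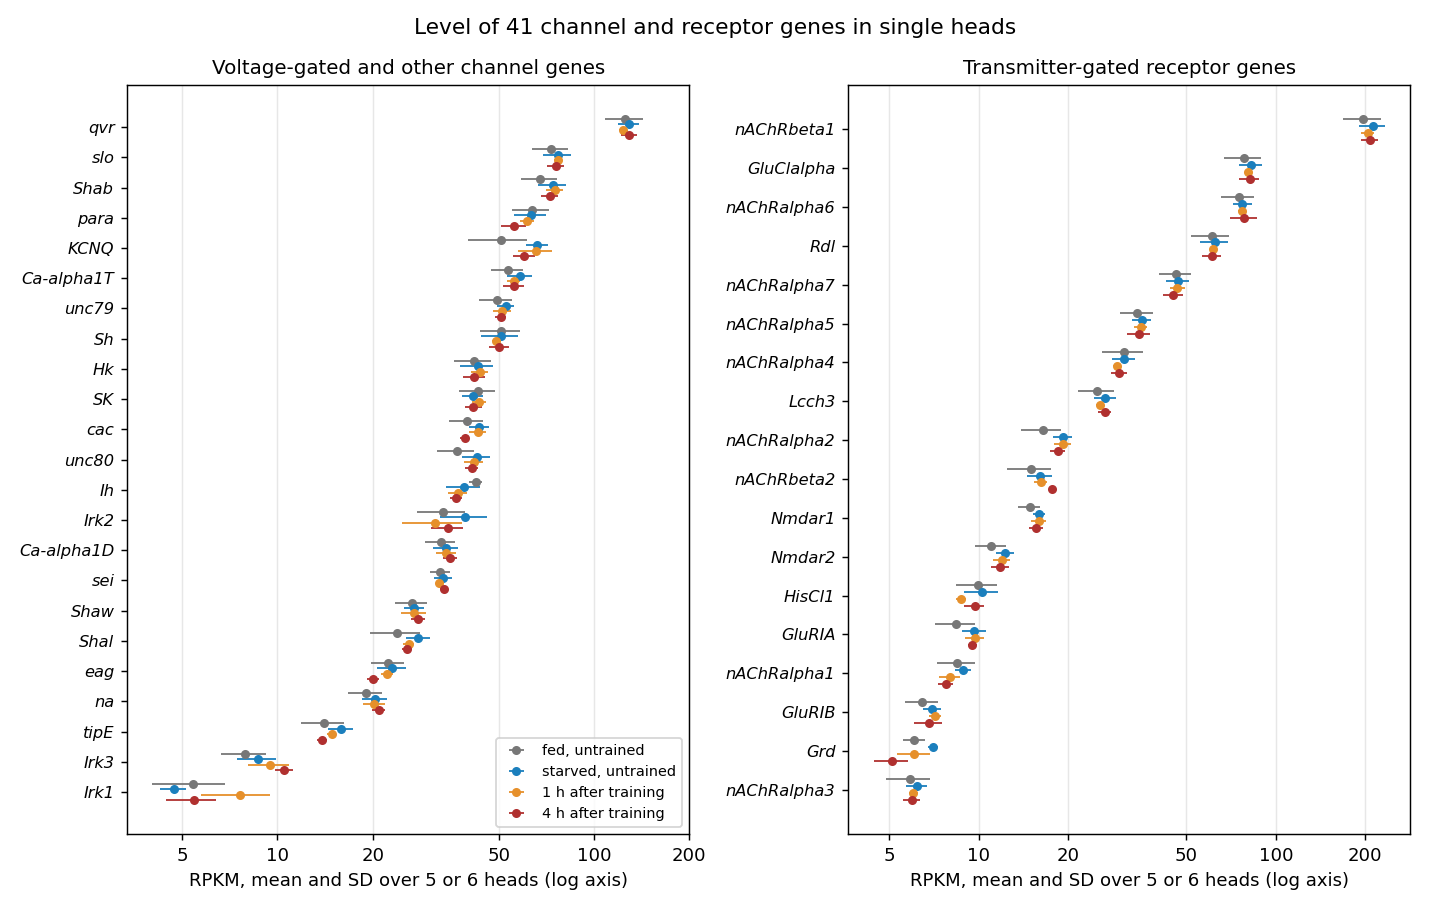
Mean RPKM with SD of the 41 genes on a log axis, with 1 point per group (5 fed, 5 starved, 6 heads 1 hour and 5 heads 4 hours after training), for channel genes on the left and receptor genes on the right. The 4 points of a gene lie close together, and the widest separations are those of Irk1, KCNQ, Irk3 and Grd.

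The set shared features that its selection did not use. The channel genes had a median of 10.2 kb of exons and a median span of 24.0 kb in the genome, and the receptor genes 5.91 kb and 22.8 kb, against 1.96 kb and 2.61 kb for the genes tested as a whole. Of the 23 channel genes 8 lie on the X chromosome (34.8%), as do 4 of the 18 receptor genes (22.2%), against 16.7% of the genes tested. Pooled over the groups on the deposited scale, their levels also varied less from fly to fly than those of most genes. So did those of the neuronal markers (median SD 0.12) and channel partners (0.11), which had long exons too (medians 6.97 and 6.04 kb). The median SD of log2(RPKM + 1) within groups was 0.12 for the channel genes and 0.13 for the receptor genes, against 0.17 for all genes tested, and 19 of the 23 channel genes and 18 of the 18 receptor genes lay under that median. The 4 exceptions were the 3 Irk genes and KCNQ, with an SD of 0.27 for Irk1, 0.25 for Irk2, 0.19 for KCNQ and 0.18 for Irk3. The lower spread did not hold in fed heads alone, where the median SD of the 41 genes was 0.19, against 0.17 for all genes. With heads scaled to the same total RPKM it was 0.45 against 0.30 in fed heads and 0.29 against 0.24 in starved heads, and lower than for all genes in both trained groups.

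To see composition without any scaling between heads, each gene was expressed as a percentage of the summed RPKM of its family in the same head. These shares are descriptions and were not tested. Among the 9 nicotinic subunits nAChRbeta1 took 45.8 ± 1.4% in fed heads, 46.8 ± 0.7% in starved heads, 46.2 ± 1.5% 1 hour after training and 46.6 ± 0.4% 4 hours after training (SD, n = 5, 5, 6 and 5). Next was nAChRalpha6, between 16.2% and 19.0% in any head, and then nAChRalpha7, between 9.81% and 11.5%. The smallest shares were those of nAChRalpha3 and nAChRalpha1, at 1.28% to 1.46% and 1.57% to 2.11%.

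Of the smaller nicotinic subunits, nAChRalpha3 took 1.34% to 1.37% in the mean of each group and nAChRalpha2 took 3.84% in fed heads, 4.25% in starved heads, 4.35% 1 hour after training and 4.17% 4 hours after training. The share of nAChRalpha1 was 1.87% to 2.03% in fed heads, 1.85% to 2.11% in starved heads, 1.57% to 1.96% in heads 1 hour after training and 1.71% to 1.78% in heads 4 hours after training. That of nAChRbeta2 was 3.09% to 3.80% in fed heads, 3.24% to 3.89% in starved heads, 3.43% to 3.95% 1 hour after training and 3.77% to 4.22% 4 hours after training. The alpha subunit lay lower and the beta subunit higher at 4 hours, each by a fraction of a percentage point of the family.

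In other families the shares also stayed within a few percentage points. Of the summed RPKM of na, unc79 and unc80, na took 16.9% to 18.9% in any head. The share of unc80 was 35.4% to 38.2% in the 3 starved groups and 34.4% to 35.6% in fed heads. Of the 4 glutamate receptor genes Nmdar1 took 34.7% to 37.7% and GluRIB 14.6% to 16.8%, and of the 3 calcium channels Ca-alpha1T took 40.2% to 44.0%. The inward rectifiers varied more, since Irk1 took from 6.87% to 23.7% of the family in single heads.

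Grd and KCNQ were examined in the same way. Of the summed RPKM of Rdl, Lcch3 and Grd, the share of Grd was 6.65 ± 0.45% in fed heads, 7.36 ± 0.72% in starved heads, 6.50 ± 0.73% 1 hour after training and 5.54 ± 0.86% 4 hours after training. Of the summed RPKM of eag, sei and KCNQ, that of KCNQ was 47.6 ± 3.0%, 54.0 ± 2.1%, 54.5 ± 3.0% and 52.8 ± 1.3% in the same order of groups. In starved heads KCNQ ranged from 52.0% to 56.9% and in fed heads from 44.7% to 52.0%.

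**Figure D2:**
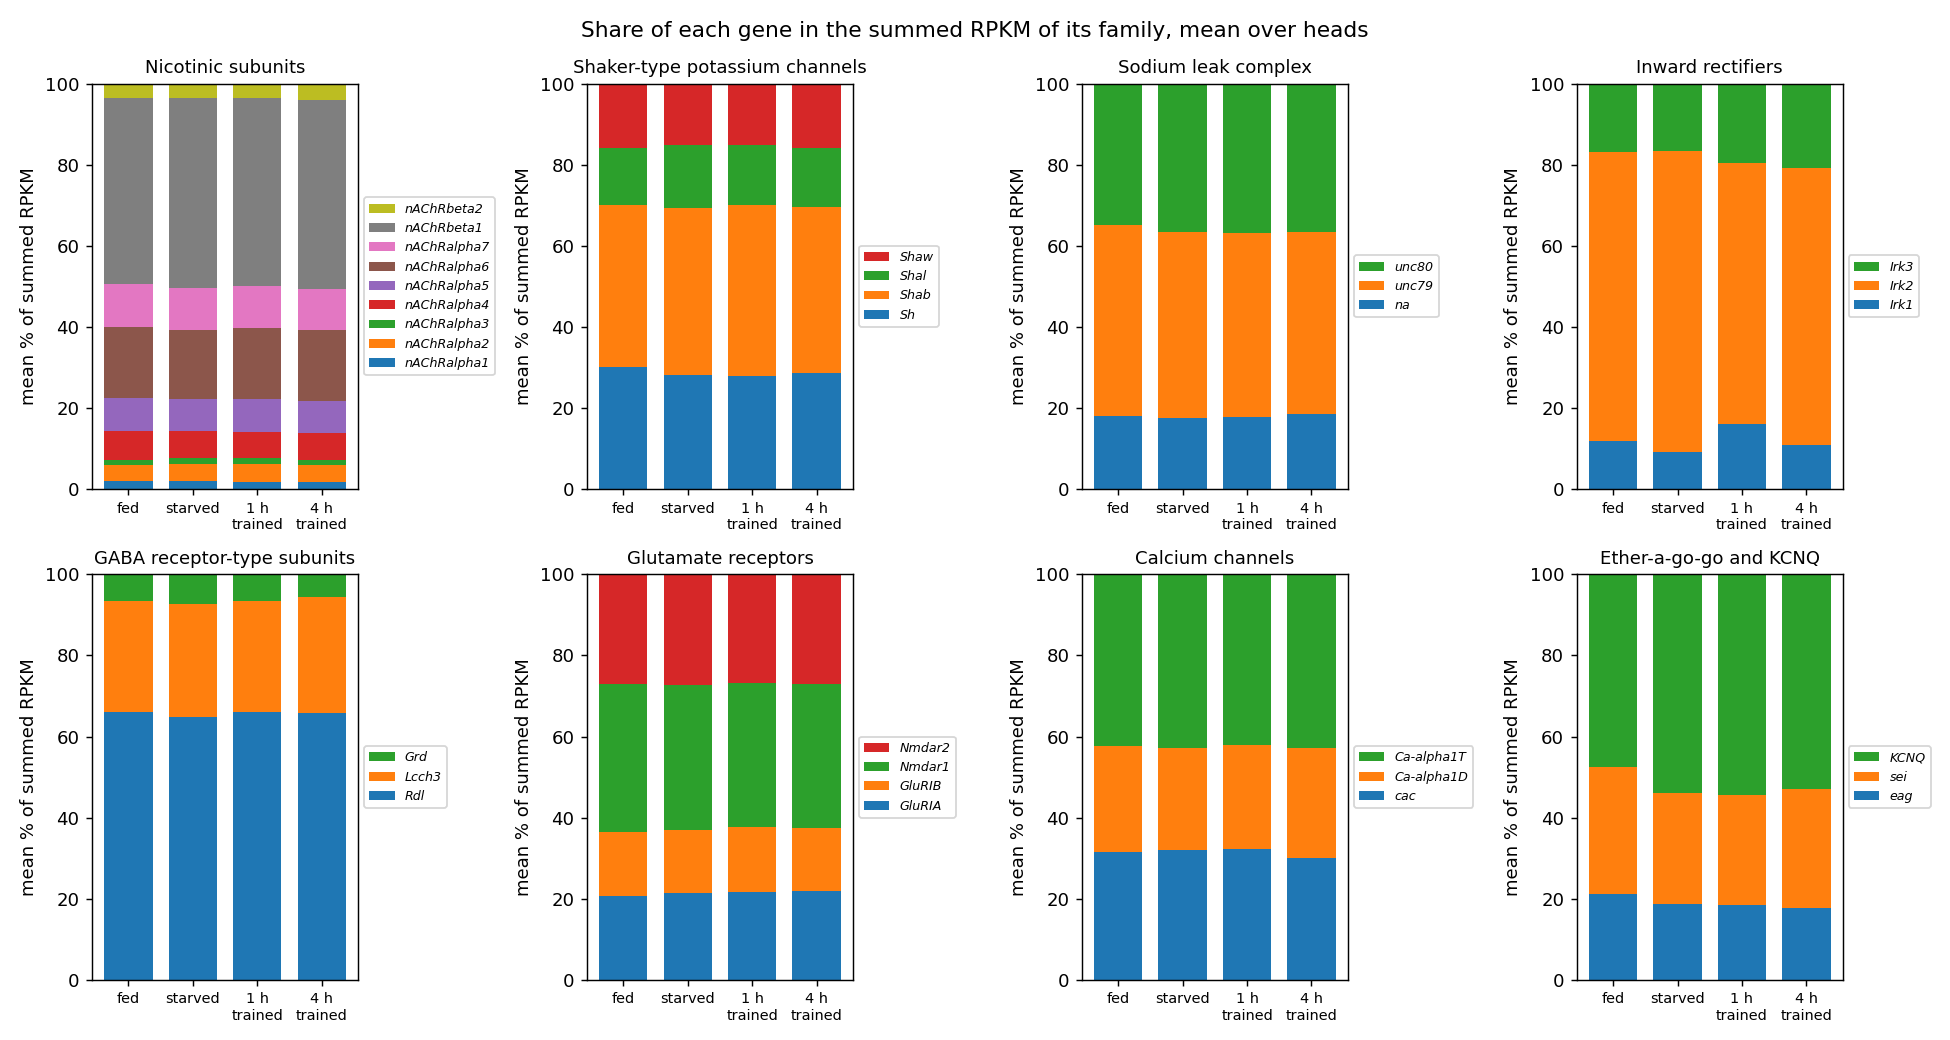
Mean percentage of the summed RPKM of its family taken by each gene, as stacked bars for the 4 groups and 8 families. The widest differences are in the inward rectifiers and in the set of eag, sei and KCNQ. Irk2 took 64.3% 1 hour after training and 74.3% in starved heads, and Irk1 took 16.1% and 9.05%. KCNQ took 54.0% in starved heads and 47.6% in fed heads, while sei took 27.3% and 31.2%.

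Groups were compared by limma on log2(RPKM + 1) over the 10501 genes that passed the filter, p-values being adjusted by Benjamini-Hochberg and called under 0.05. All fold changes below are on this scale, which understates changes of genes with low values. A head holds many cell types, so that fewer cells of a type and less RNA per cell cannot be told apart.

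Starved untrained heads against fed untrained heads asked what food deprivation alone does to these genes. None of the 41 genes passed limma's adjusted threshold, against 1.51% of all genes tested. At an unadjusted p under 0.05 limma had 8 of 41, all higher in starved heads, against 19.4% of all genes, and limma-voom on the recovered reads also called 0 members. The direction was nonetheless mostly shared, with 18 of 23 channel genes and 18 of 18 receptor genes higher in starved heads. The median log2 fold change was 0.07 for channels and 0.09 for receptors, and -0.0015 over all genes. Of the 10 neuronal markers 9 were also higher, with a median of 0.11. So were 8 of 10 photoreceptor, 7 of 9 muscle and 5 of 8 glial markers (medians 0.08, 0.15 and 0.08) and 21 of 28 channel partners (0.07). Of the fat body markers 0 of 9 were higher, and of the hemocyte markers 2 of 5. When the mean of the neuronal markers was subtracted in each head, 11 of 23 channel genes and 9 of 18 receptor genes were above 0, beside 2982 of 10501 for all genes (5211 on the deposited scale).

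The channel genes with the highest fold changes were KCNQ and Shal, and the lowest were Irk1 and Ih. KCNQ had 67.2, 58.6, 71.8, 64.0 and 70.0 RPKM in starved heads, against 67.0, 40.3, 44.5, 55.8 and 46.3 RPKM in fed heads. A single fed head, replicate 1, reached the starved range, and the difference was 0.40 with an SE of 0.12 (adjusted p = 0.0797 by limma). Shal differed by 0.23 (95% interval 0.05 to 0.41), Irk1 by -0.14 (-0.49 to 0.20) and Ih by -0.12 (-0.28 to 0.03).

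Among receptors nAChRalpha2 and GluRIA were at the top, with 0.22 (95% interval 0.05 to 0.39) and 0.19 (0.02 to 0.35). At the bottom, nAChRalpha7 with 0.02 (-0.15 to 0.19) and nAChRalpha4 with 0.00 (-0.17 to 0.18) were close to no difference. Heads of the groups did not overlap for 1 member, Grd, against 4.03% of all genes. Grd had 6.74, 7.10, 6.87, 6.87 and 7.44 RPKM in starved heads, against 6.68, 5.31, 5.80, 6.42 and 6.16 RPKM in fed heads, a difference of 0.18 that did not pass (limma adjusted p = 0.239). Without fed replicate 1, limma called 4 channel genes (KCNQ, Shal, tipE and unc80) and 2 receptor genes (nAChRalpha2 and GluRIA), each higher in starved heads, in a fit that called 7.47% of all genes. Sample quality weights called 6 channel genes and 4 receptor genes beside 17.5% of all genes, and scaling to the same total RPKM called KCNQ and Grd beside 8.14%.

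Heads 1 hour after training against starved heads asked for an early change on top of starvation. Again 0 of 41 genes passed by limma and 0 by limma-voom, against 0.552% of all genes by limma. At an unadjusted p under 0.05 limma had 4 of 41 (1 higher and 3 lower), against 13.6% of all genes, and no member had heads that did not overlap, against 1.5% of all genes. Of the channel genes 7 of 23 were higher after training, and of the receptor genes 5 of 18, with medians of -0.03 and -0.02. Of the 10 neuronal markers 0 were higher, with a median of -0.04. Relative to these markers the counts were 17 of 23 and 12 of 18, beside 6668 of 10501 for all genes (5089 on the deposited scale).

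Irk1 had the highest fold change of all members in this comparison. Its level 1 hour after training was 4.92 to 10.3 RPKM with a median of 7.59 RPKM, against 4.90, 5.23, 4.33, 4.95 and 4.14 RPKM in starved heads. Trained replicate 4, at 4.92 RPKM, lay within the starved range, and the other trained heads lay above it. The difference was 0.57 with an SE of 0.16, higher in 6 of 6 heads than the starved mean, and did not pass (limma adjusted p = 0.116), but did without trained replicate 4 (0.67, adjusted p = 0.0377), as it also did relative to fed heads (0.53, adjusted p = 0.0385). Of the exonic bases of Irk1 61.0% are shared with CG46310 and cnc, and the libraries do not keep the strand. The transcription factor gene cnc itself had 29.6 ± 5.4 RPKM 1 hour after training, against 25.3 ± 2.7 RPKM in starved heads (SD, n = 6 and 5, difference 0.20, limma adjusted p = 0.399), and its part in the value of Irk1 was not tested.

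The other extremes were small or uncertain. Irk3 differed by 0.11 (95% interval -0.12 to 0.33), Irk2 by -0.32 (-0.63 to -0.01) and Shal by -0.09 (-0.27 to 0.08). Among receptors HisCl1 differed by -0.20 (-0.38 to -0.03), Grd by -0.19 (-0.35 to -0.02), GluRIB by 0.03 (-0.11 to 0.17) and nAChRbeta2 by 0.01 (-0.15 to 0.18). None of these passed the adjusted threshold.

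Heads 4 hours after training against starved heads gave 1 call among the 41 members (2.44%), Grd, against 6.37% of all genes tested. At an unadjusted p under 0.05 limma had 5 of 41 members, against 22.2% of all genes. Grd encodes a subunit related to GABA receptors, which in frog oocytes forms a GABA-gated cation channel together with Lcch3. It had 5.14, 5.14, 5.97, 5.24 and 4.06 RPKM 4 hours after training, against 6.74, 7.10, 6.87, 6.87 and 7.44 RPKM in starved heads. The groups did not overlap, as for 9.63% of all genes, and each trained head lay under each starved head. The difference was -0.40 with an SE of 0.08 (95% interval -0.57 to -0.22, limma adjusted p = 0.00846), and was lower in 5 of 5 heads.

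Grd lies on chromosome 3L from 17823333 to 17839767 on the plus strand (dm6), and each head gave 850 to 1780 reads on it. Of its exonic bases 27.5% are shared with CG5577, which had 14.2 ± 3.3 RPKM 4 hours after training and 18.6 ± 8.5 RPKM in starved heads (SD, n = 5 each), a difference of -0.28 that did not pass (limma adjusted p = 0.66), and its part in the change of Grd was not tested. Its relatives did not pass, with Rdl at 60.9 ± 4.4 RPKM 4 hours after training against 62.2 ± 6.8 RPKM in starved heads and Lcch3 at 26.6 ± 1.3 against 26.7 ± 2.3 RPKM (SD, n = 5 each). Lcch3 itself shares 31.3% of its exonic bases with Ranbp16 and asRNA:CR45000. Grd kept its call in each of 10 fits that left out a single starved or 4 hour head, with fold changes between -0.45 and -0.33. It lost it when all heads were scaled to the same total RPKM (-0.38, adjusted p = 0.123) and when the mean of the neuronal markers was subtracted (-0.34, adjusted p = 0.0546).

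Heads 1 hour after training lay between, at 5.00 to 7.22 RPKM with a median of 6.01 RPKM for Grd. Heads 4 hours after training were below these by 0.21 (95% interval -0.38 to -0.04, adjusted p = 0.269) and below fed heads by 0.22 (-0.39 to -0.04, adjusted p = 0.16), and neither passed by limma. Starved heads, the reference of the call, had the highest mean of the 4 groups, 7.005 ± 0.277 RPKM, against 6.07 ± 0.53 RPKM in fed heads (SD, n = 5 each).

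Of the other members 4 hours after training, Irk3 was the highest relative to starved heads with 0.25 (95% interval 0.02 to 0.49) and Irk1 next with 0.16 (-0.18 to 0.51). The lowest channel genes were eag with -0.19 (-0.34 to -0.03) and tipE with -0.18 (-0.35 to -0.02). Among receptors nAChRbeta2 was at 0.13 (-0.04 to 0.31), nAChRalpha6 at 0.01 (-0.16 to 0.18) and nAChRalpha1 at -0.17 (-0.34 to -0.01). As a set, 8 of 23 channel genes and 2 of 18 receptor genes were higher than in starved heads, with medians of -0.03 and -0.04, and 2 of 10 neuronal markers were higher, with a median of -0.04. These counts depend on the scale, which moves all genes together. Relative to the markers they were 14 of 23 and 15 of 18, beside 6689 of 10501 for all genes (5302 on the deposited scale), and with the same 75th percentile 12 of 23 and 9 of 18, beside 6153 for all genes.

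Heads 1 hour after training against fed heads, the comparison that also holds the effect of starvation, gave 1 call among the 41 members (2.44%), KCNQ, against 8.98% of all genes tested. At an unadjusted p under 0.05 limma had 7 of 41 members, against 28.2% of all genes. KCNQ had 51.3 to 74.6 RPKM 1 hour after training with a median of 67.4 RPKM, against 67.0, 40.3, 44.5, 55.8 and 46.3 RPKM in fed heads. The groups overlapped, since fed replicate 1 was at 67.0 and trained replicate 2 at 51.3 RPKM. The difference was 0.38 with an SE of 0.11 (95% interval 0.14 to 0.62, limma adjusted p = 0.042), with 6 of 6 trained heads above the fed mean.

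KCNQ lies on chromosome 2R from 10145897 to 10192394 on the minus strand (dm6), with 6243 to 16598 reads per head. Of its exonic bases 27.4% are shared with CG18011 and with the antisense RNA asRNA:CR45133, and without strand the reads of these cannot be told apart from those of KCNQ. The value of the antisense RNA was also higher 1 hour after training, at 8.97 ± 0.49 RPKM against 7.38 ± 0.81 RPKM in fed heads (SD, n = 6 and 5, difference 0.26, limma adjusted p = 0.0378). Whether this value holds reads of KCNQ was not tested. CG18011 had 3.96 ± 0.70 against 3.73 ± 0.58 RPKM. The call of KCNQ was less firm than that of Grd. It was lost in 7 of 11 fits that left out a single head of the groups compared (fed replicate 2, 3 or 6 or trained replicate 1, 3, 4 or 5), with fold changes of 0.30 to 0.48 and adjusted p between 0.00761 and 0.121, and when the fit held just these 2 groups (adjusted p = 0.16). It was kept relative to the neuronal markers (0.34, adjusted p = 0.0393).

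KCNQ was at a similar mean in starved heads that were not trained. Heads 1 hour after training had 65.7 ± 8.0 RPKM, against 66.3 ± 5.2 RPKM in starved heads (difference -0.02, limma adjusted p = 0.967). Heads 4 hours after training were at 60.2 ± 4.7 RPKM, a difference from fed heads of 0.26 (95% interval 0.02 to 0.51, adjusted p = 0.222). These comparisons share the fed or starved heads and are not independent of each other.

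Beside KCNQ, the highest channel gene 1 hour after training relative to fed heads was Irk1 with 0.42 (95% interval 0.09 to 0.75), and the lowest were Ih with -0.18 (-0.33 to -0.04) and Irk2 with -0.09 (-0.40 to 0.22). Ih was the 1 member whose heads did not overlap, against 4.72% of all genes. It had 34.0 to 40.0 RPKM with a median of 37.6 RPKM 1 hour after training, against 45.6, 40.2, 41.5, 41.3 and 42.6 RPKM in fed heads, and did not pass (limma adjusted p = 0.0944). Among receptors nAChRalpha2 was at 0.22 (0.06 to 0.39), GluRIA at 0.19 (0.04 to 0.35), HisCl1 at -0.16 (-0.33 to 0.01) and nAChRalpha1 at -0.07 (-0.22 to 0.09). In all, 16 of 23 channel genes and 14 of 18 receptor genes were higher than in fed heads, with medians of 0.07 and 0.05, beside 9 of 10 neuronal markers with a median of 0.04. Relative to these markers the counts were 14 of 23 and 10 of 18, beside 4097 of 10501 for all genes (4993 on the deposited scale). Without fed replicate 1, limma also called Shal, unc80, nAChRalpha2, nAChRbeta2 and GluRIA, each higher 1 hour after training, in a fit that called 15.8% of all genes.

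Heads 4 hours after training against fed heads gave 0 of 41 calls by limma and 0 by limma-voom, against 3.4% of all genes by limma. At an unadjusted p under 0.05 limma had 7 of 41, against 20.1% of all genes. Irk3 was nearest, at 11.4, 10.7, 10.5, 9.45 and 10.5 RPKM 4 hours after training, against 9.52, 5.93, 8.05, 8.13 and 7.96 RPKM in fed heads. A single fed head, replicate 1, reached the trained range, and the difference was 0.38 with an SE of 0.11 (limma adjusted p = 0.0695, and 0.0359 without fed replicate 1, when nAChRbeta2 and GluRIA were called as well, both higher, beside 4.51% of all genes). Irk3 shares 10.8% of its exonic bases with Grip71, which had 2.28 ± 0.46 RPKM 4 hours after training and 2.37 ± 0.35 RPKM in fed heads (SD, n = 5 each).

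Ih was again the 1 member without overlap, against 8.92% of all genes. It had 39.0, 36.8, 36.1, 36.6 and 34.9 RPKM 4 hours after training, all under the lowest fed head at 40.2 RPKM, and its difference of -0.20 did not pass (limma adjusted p = 0.138). KCNQ was at 0.26, para at -0.18 (95% interval -0.37 to 0.02), nAChRbeta2 at 0.24 (0.06 to 0.41), nAChRalpha2 at 0.17 (0.00 to 0.34), nAChRalpha1 at -0.11 (-0.27 to 0.05) and Grd at -0.22. As a set, 16 of 23 channel genes and 13 of 18 receptor genes were higher, with medians of 0.05 and 0.06, beside 7 of 10 neuronal markers with a median of 0.05. Relative to these markers the counts were 14 of 23 and 10 of 18, beside 4239 of 10501 for all genes (5080 on the deposited scale). Scaled to the same total RPKM, Ih, para, Grd and nAChRalpha1 were above 0 instead of below it.

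Heads 4 hours against 1 hour after training compared the trained groups directly. Of the 41 members 0 passed by limma and 0 by limma-voom, against 0.0857% of all genes by limma, and 2 had an unadjusted p under 0.05 by limma, both lower at 4 hours, against 12.8% of all genes. The extremes were Irk3 with 0.14 (95% interval -0.08 to 0.37), Irk2 with 0.15 (-0.16 to 0.46), Irk1 with -0.40 (-0.73 to -0.07) and para with -0.14 (-0.32 to 0.04) among channels. Among receptors they were HisCl1 with 0.13 (-0.04 to 0.31), nAChRbeta2 with 0.12 (-0.05 to 0.28), GluRIB with -0.07 (-0.21 to 0.08) and Grd. Heads did not overlap for 2 members, eag and nAChRbeta2, against 3.27% of all genes. The eag level was 21.05, 19.17, 19.38, 19.76 and 20.98 RPKM at 4 hours, against 21.09 to 23.38 RPKM with a median of 22.06 RPKM at 1 hour, and nAChRbeta2 had 17.18 to 17.96 RPKM at 4 hours, against 15.30 to 17.15 RPKM at 1 hour. For both genes the gap between the groups was under 0.1 RPKM.

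For most members the lack of a call came with a narrow interval. The 95% interval lay within 0.5 of zero on the log2 scale for 39 of 41 members in each of 5 comparisons and for 40 of 41 in the comparison of 4 hours with 1 hour, against 63.6% to 69.5% of all genes tested. The genes with wider intervals were Irk1, Irk2, Irk3, KCNQ and Grd. For the other members a change of this size in the mean level of a whole head lies outside the interval on the deposited scale. With heads scaled to the same total RPKM it does not, since the median of all genes against fed heads was then 0.25 to 0.30 and nAChRbeta2, for example, was at 0.57 4 hours after training against fed heads. Changes in few cells of the head, or in splicing, were not measured.

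**Figure D3:**
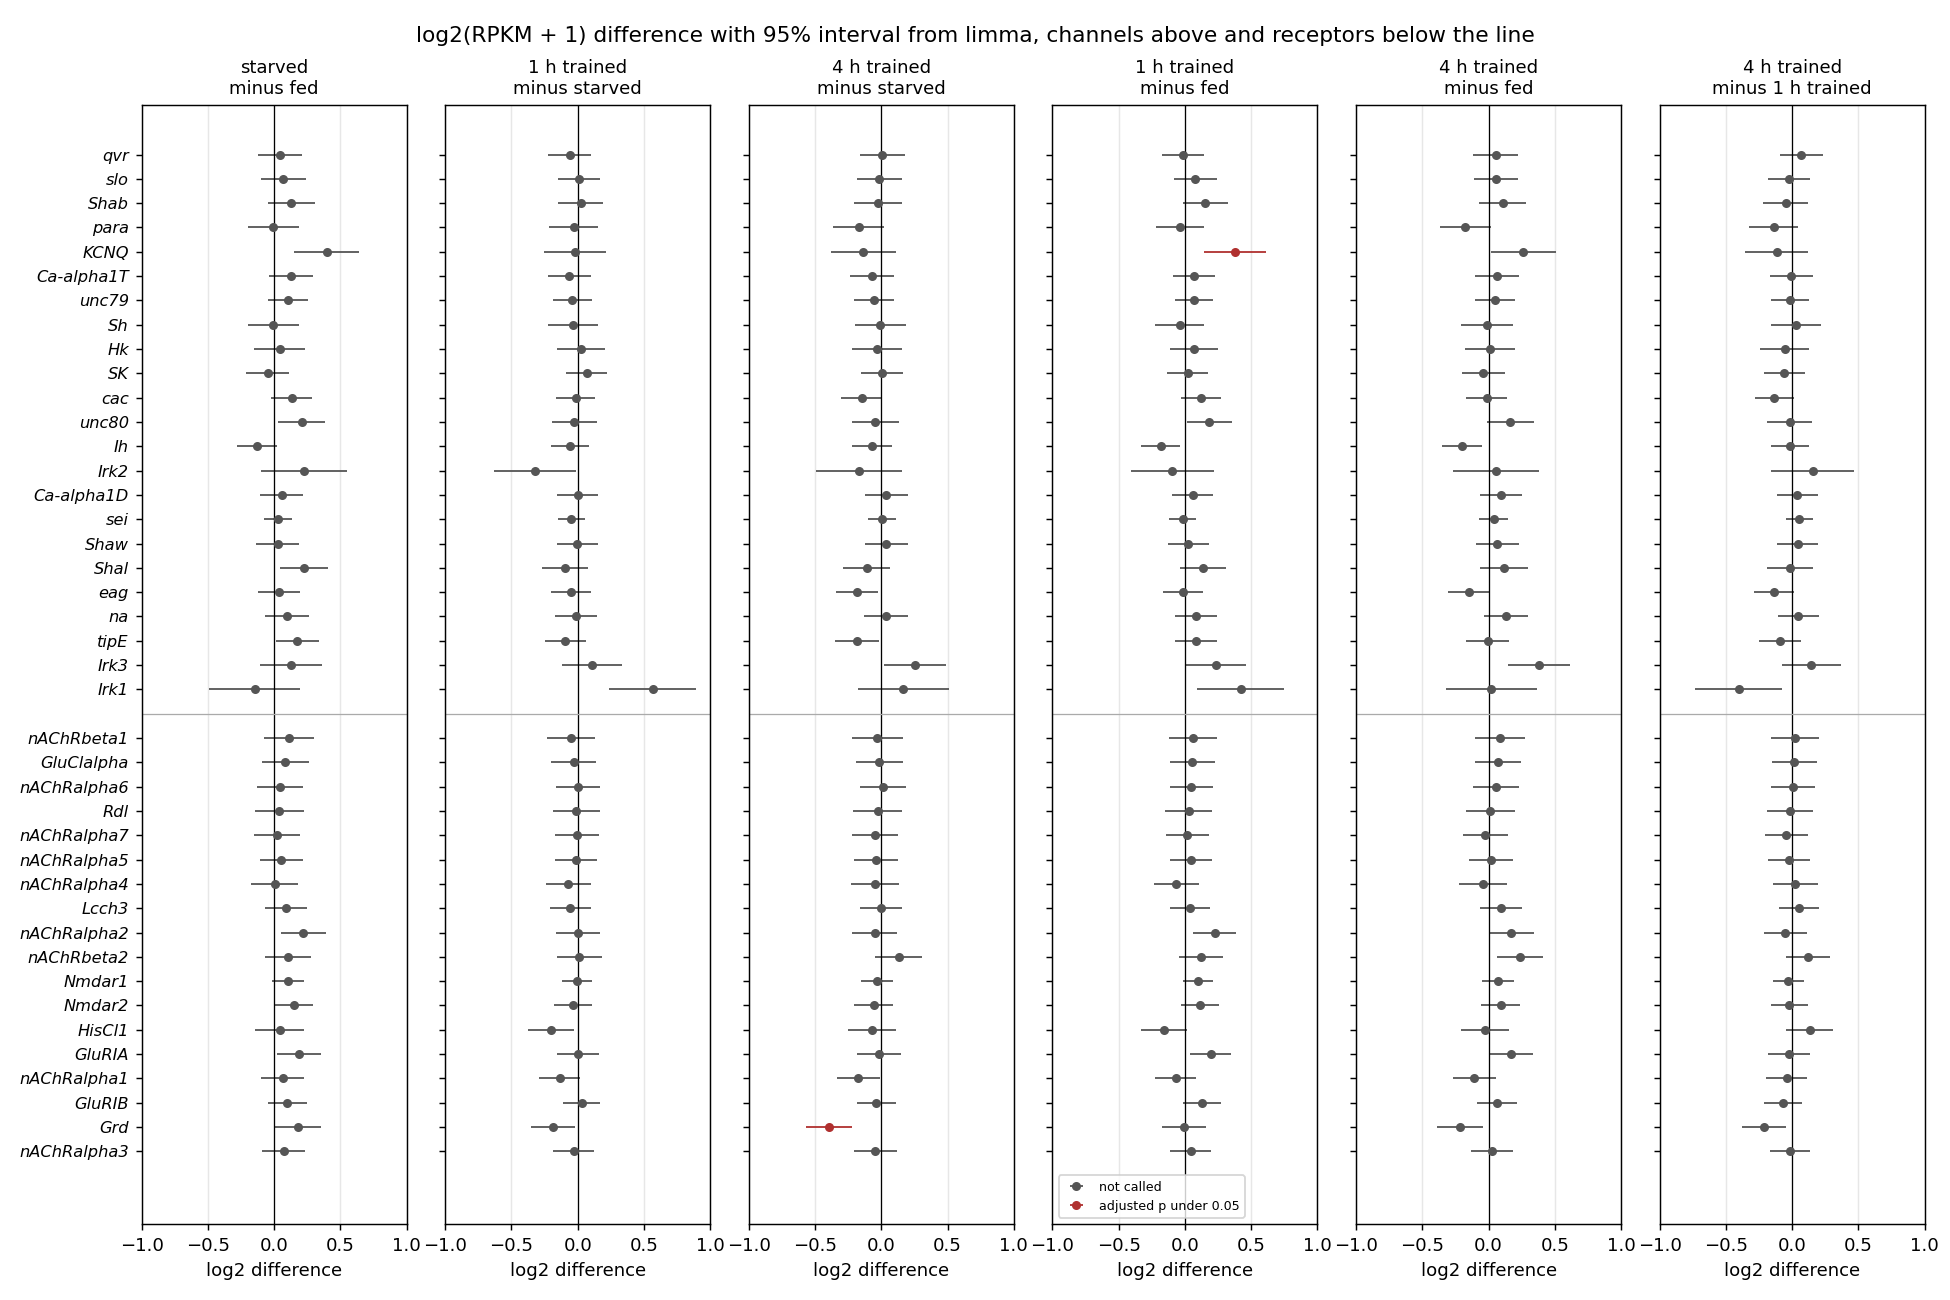
Difference in log2(RPKM + 1) with its 95% interval from limma for the 41 genes in the 6 comparisons, with channel genes above the line and receptor genes under it, and red for an adjusted p under 0.05. Most intervals include 0, and the red points are KCNQ 1 hour after training against fed heads and Grd 4 hours after training against starved heads.

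**Figure D4:**
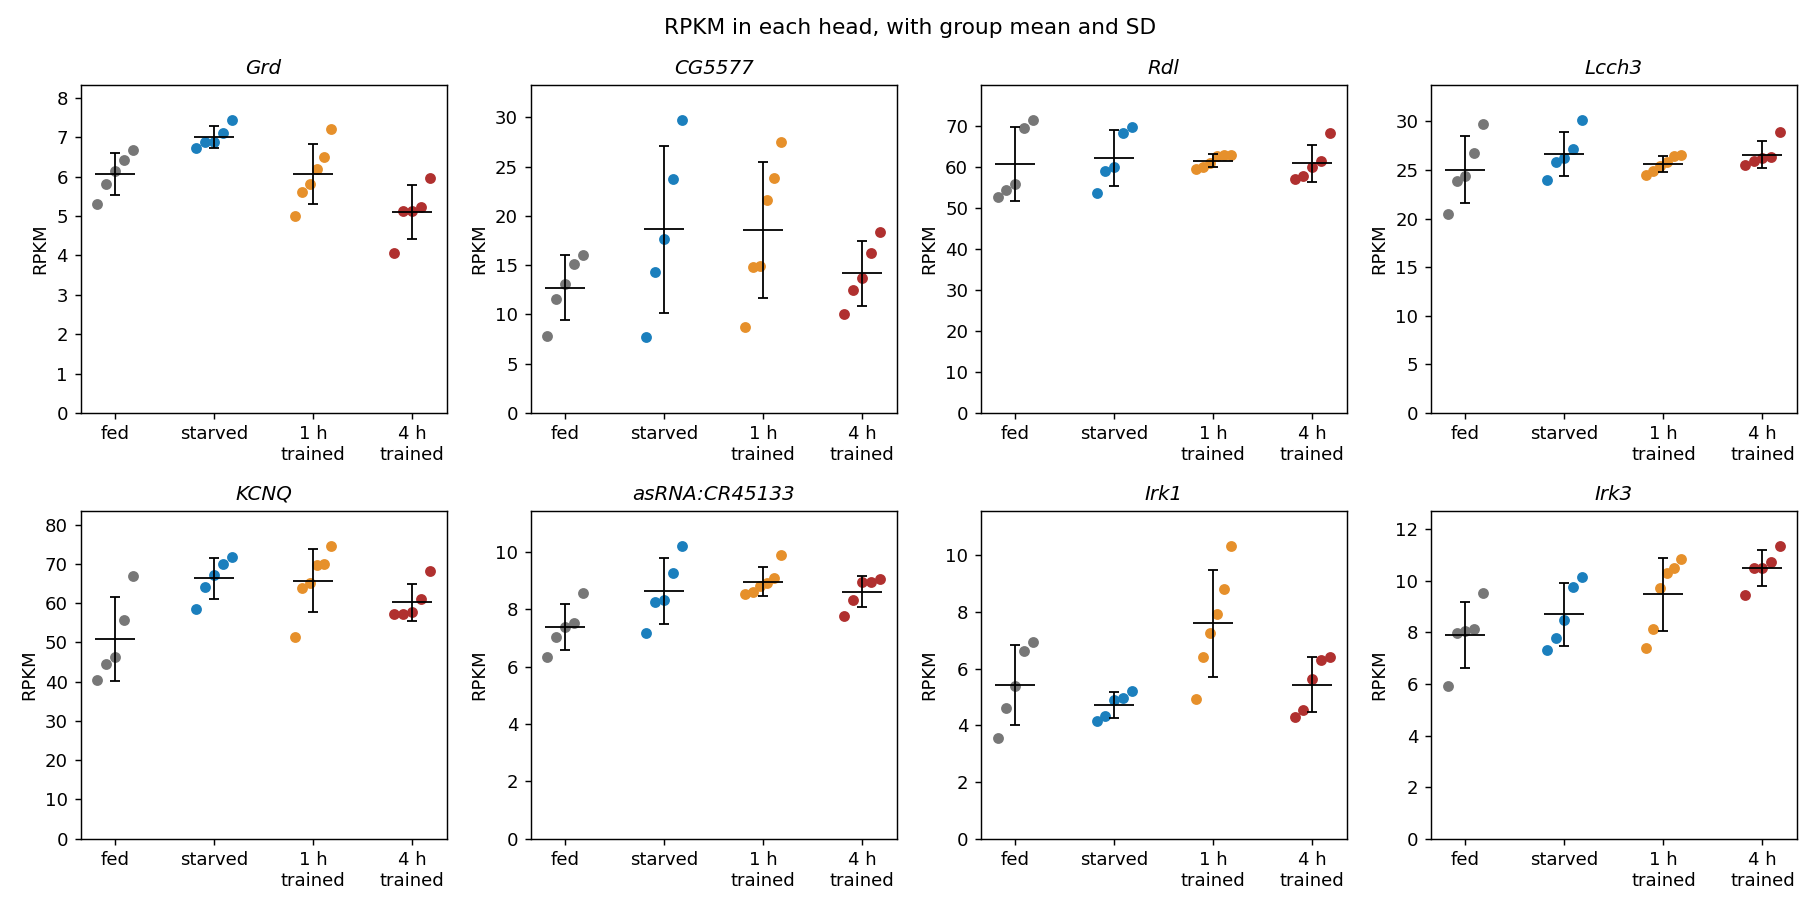
RPKM of single heads with group mean and SD for Grd, CG5577 that shares exons with it, its relatives Rdl and Lcch3, and KCNQ, the antisense RNA that overlaps it, Irk1 and Irk3. All 5 heads 4 hours after training lie under all 5 starved heads for Grd, and 3 of the 5 fed heads of KCNQ (40.3, 44.5 and 46.3 RPKM) lie under each head of the other groups.

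The variation from head to head was shared across the set. For each head, log2(RPKM + 1) was averaged over the 41 genes and over the 10 neuronal markers, which include elav, nSyb, Syt1 and brp and none of which was at 0. In fed heads the members' mean was 5.05, 4.64, 4.81, 4.95 and 4.77 for replicates 1, 2, 3, 5 and 6, and the markers' mean 6.16, 5.76, 5.94, 6.09 and 5.88. The order of the 5 heads is the same in both. Their total RPKM was 487963, 820048, 568542, 492366 and 597559, which gives the reverse order. For starved replicates 1 to 5 the members' mean was 4.87, 4.87, 5.06, 5.01 and 4.85. Their total RPKM was 467314, 537984, 381084, 443938 and 504146, nearly the reverse order, and the trained heads followed it less closely. The part of the total in this variation was not tested. In starved heads the members were at 4.85 to 5.06 and the markers at 5.96 to 6.20, 1 hour after training at 4.86 to 4.96 and 5.97 to 6.04, and 4 hours after training at 4.83 to 4.99 and 5.95 to 6.10. The SD of the neuronal markers' mean was 0.16, 0.10, 0.03 and 0.06 in these 4 groups, fed heads first. For 10 photoreceptor markers it was 0.15, 0.13, 0.07 and 0.03, also largest in fed heads. The glial, muscle, fat body and hemocyte markers did not have their largest SD in fed heads.

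Fed heads varied most. Of the 41 members, 38 had their largest SD in fed heads (92.7%), against 35.5% of all genes tested, and the median SD of the members was 0.19 in fed heads, 0.12 in starved heads, 0.08 1 hour after training and 0.09 4 hours after training. Scaling the heads to the same total RPKM left 40 of 41 members with the largest SD in fed heads, against 53.4% of all genes. Scaling to the same 75th percentile left 39 of 41, against 37.4% of all genes. With the mean of the neuronal markers subtracted in each head, 12 of 41 (29.3%) had it in fed heads, against 46.8% of all genes, and the median SD of the members was 0.08, 0.07, 0.06 and 0.05 in the 4 groups in the same order. The members' spread thus shrank on this scale, whereas the median SD of all genes in fed heads was 0.24 with the markers subtracted and 0.17 without.

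**Figure D5:**
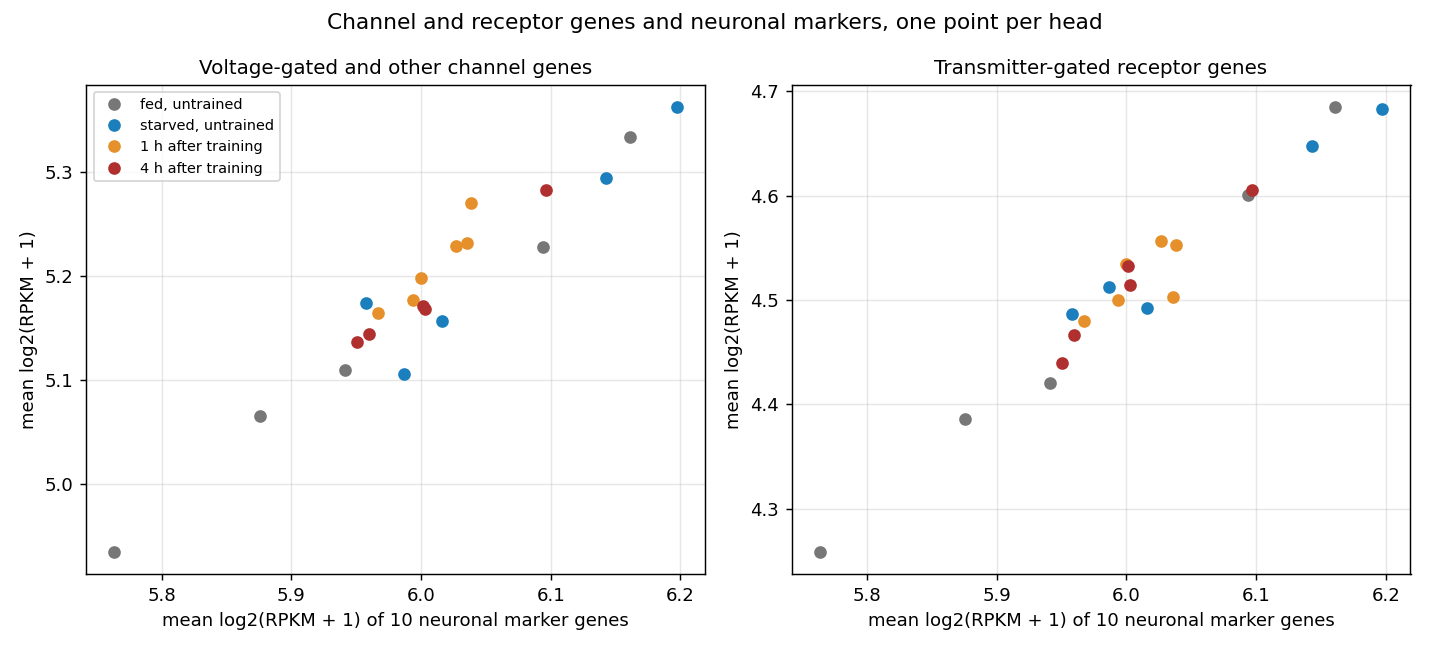
Mean log2(RPKM + 1) of the 23 channel genes (left) and the 18 receptor genes (right) against that of 10 neuronal marker genes, with 1 point per head and colors for the 4 groups. The points fall along a line, with the fed heads spread from 5.76 to 6.16 and the 6 heads 1 hour after training close together between 5.97 and 6.04 on the marker axis.

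Markers of other cell types did not all move alike with the groups. The summed RPKM of 10 fat body markers was 29475 to 65263 in fed heads, 179 to 11551 in starved heads, 889 to 22162 in heads 1 hour after training and 2667 to 9581 in heads 4 hours after training. That of 10 photoreceptor markers was 16249 to 21526 in fed heads, 17106 to 22527 in starved heads, 21408 to 24378 in heads 1 hour after training and 23914 to 26150 in heads 4 hours after training. Most of this sum is ninaE and Arr2, and by gene 4 of 10 photoreceptor markers were higher 1 hour after training than in starved heads (median -0.05) and 8 of 10 at 4 hours (median 0.02). Relative to starved heads, 0 of 9 muscle markers were higher at 1 hour (median -0.66) and 0 of 9 at 4 hours (median -0.66). Of the 5 hemocyte markers 0 were higher at 1 hour (median -0.40) and 0 at 4 hours (median -0.62), where Sr-CI fell by 1.30 (limma adjusted p = 0.00424), and of the 8 glial markers 2 and 4 were higher (medians -0.20 and -0.05). The summed RPKM of the hemocyte markers was 33.0 to 50.1 4 hours after training and 57.1 to 93.0 in starved heads, and that of the muscle markers 639 to 1697 and 820 to 2686. No marker of any list was at 0 in all heads. The part of these cell types in the differences of the members was not tested.

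Related genes that are not among the 41 were taken from 3 further lists. Of 35 other channel genes 30 passed the filter, of 25 other receptor genes 21 and of 29 channel partners 28. Among the other channels Best1, a bestrophin chloride channel, was called most often. It rose 1 hour after training, with 16.7 to 24.0 RPKM against 13.6 to 15.7 RPKM in starved heads (0.41, limma adjusted p = 0.0172) and 12.2 to 14.6 RPKM in fed heads (0.52, adjusted p = 0.00174), and it was also higher 4 hours after training than in fed heads (0.36, adjusted p = 0.0281). The heads did not overlap in any of these, as for 1.5%, 4.72% and 8.92% of all genes in the same order. Of all genes limma called 0.552%, 8.98% and 3.4% in these comparisons.

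In heads 4 hours after training against starved heads, 3 of 30 other channels, 1 of 21 other receptors and 2 of 28 partners were called, against 6.37% of all genes. The innexin shakB, a subunit of electrical synapses, fell (-0.40, limma adjusted p = 0.0218), as did the lysosomal channel Trpml (-0.19, adjusted p = 0.0464), and the TRP channel pyx rose (0.70, adjusted p = 0.0436). The receptor gene called was ort, the histamine-gated chloride channel through which lamina neurons receive photoreceptor input, and it was at 7.79 to 13.1 RPKM 4 hours after training and at 16.8 to 19.0 RPKM in starved heads (-0.56, adjusted p = 0.0163). Of the partners, Slob, whose protein binds the slo channel, rose to 56.3 to 66.5 RPKM, against 39.6 to 56.0 RPKM in starved heads (0.37, adjusted p = 0.0229), and ps, a splicing regulator, fell (-0.26, adjusted p = 0.0367). The slo gene itself had 75.8 ± 4.8 against 76.8 ± 7.7 RPKM in the same groups.

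Against fed heads, the kainate-type receptor gene Grik rose in starved heads (0.52, limma adjusted p = 0.0477), 1 hour after training (0.40, adjusted p = 0.0441) and 4 hours after training (0.47, adjusted p = 0.0466), 3 comparisons that share the fed heads. Against fed heads limma called 4 of 30 other channels, 2 of 21 other receptors and 0 of 28 partners at 1 hour, against 8.98% of all genes. At 1 hour the TRP channel pain (0.56), the tandem-pore potassium channel sand (0.77), the inositol trisphosphate receptor Itpr (0.20) and the glutamate receptor subunit GluRIIA (0.35) also rose relative to fed heads, with limma adjusted p of 0.0228, 0.0161, 0.0253 and 0.0426. The counts at 4 hours were 3 of 30 other channels, 2 of 21 other receptors and 1 of 28 partners, against 3.4% of all genes. At 4 hours KaiR1D, another kainate-type subunit, rose by 0.27 (adjusted p = 0.0466) and Slob by 0.44 (adjusted p = 0.02) relative to fed heads, while shakB fell by 0.40 (adjusted p = 0.0361) and Shawl, a potassium channel related to Shaw, fell by 1.27 (adjusted p = 0.0387). Shawl had 49.3 to 99.4 RPKM 4 hours after training and 102 to 292 RPKM in fed heads, whereas Shaw had 27.8 ± 1.4 and 26.6 ± 3.1 RPKM. In the comparison of starved with fed heads 0 of 30 other channels and 0 of 28 partners were called by limma, against 1.51% of all genes, with 4 and 4 at an unadjusted p under 0.05, against 19.4% of all genes. In the comparison of 4 hours with 1 hour after training limma called 0 genes of the 3 lists, against 0.0857% of all genes, and 3 channels, 1 partner and 2 receptors had an unadjusted p under 0.05, against 12.8% of all genes.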

How the data were processed

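Single heads of female flies were sequenced as non-stranded polyA libraries made with the TruSeq kit. The authors' notes name CASAVA 1.8.2, TopHat2 2.0.13, edgeR 3.18.1 and dm6, and another paragraph of the methods names other versions and an older build. Some tools' roles were not given in the sources used here. The authors deposited a single RPKM value for each of 17559 genes and 21 heads, and 0 columns were left unused. Whole reads were recovered from the RPKM steps for 17212 of 17212 genes above 0 (100%, within 0.001 read), and 16494 gene lengths equal the summed exons of BDGP6.54. Reads on genes had a median of 48817711 per head. The library size implied by the RPKM values was 0.813 to 1.14 times the reads on genes. In fed replicates 1, 2, 3, 5 and 6 it was 0.981, 0.813, 0.898, 1.01 and 0.873 times these reads. The deposited values were thus not scaled by the reads on genes alone. No replicate pair was a single library deposited again, since chi-square per gene between replicate heads was never under 23.22.

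Groups and replicates were taken from the labels. RPKM values are not counts, so the comparisons used log2(RPKM + 1) in limma 3.58.1 (lmFit, eBayes with trend) in R 4.3.3. All 21 heads entered the fit, testing was limited to 10501 genes reaching an RPKM of 1 in 5 or more heads, and p-values were adjusted by Benjamini-Hochberg and called under 0.05. The script was tested on simulated reads with a dispersion of 0.02, for 4 hours after training against starved heads. With a log2 change of 1 in 198 of the genes tested, 196 were called, and 22 of the 218 calls were false. With no change 0 genes were called. The p-values measure the spread between single flies.

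The members, the lists of related genes and markers, and the tests were chosen with earlier results of these data known. Lists were written from general knowledge. The named genes are the members called, the 2 highest and 2 lowest fold changes of each list in each comparison, and the 3 highest and 3 lowest levels of each list. Genes of other lists were named where called. Members whose heads did not overlap, those that gained a call when a head was left out, and family shares were added after their values were seen. The alternatives were pseudocount 0.1, testing without a filter, a filter on mean RPKM at 5, scaling to the same 75th percentile or total RPKM, eBayes without trend or robust, only the 2 groups compared, sample quality weights, limma-voom on recovered reads, the replicate number as a block, and leaving out each head. A fit relative to the neuronal markers was added after seeing the data. Sequences were not used here. Tables and figures used Python 3.11.15, numpy 2.4.6, pandas 2.3.3, scipy 1.17.1 and matplotlib 3.10.9.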

Additional observations from a re-analysis of the deposited data

Results flagged for a closer look

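Each of the 41 genes was examined in each of the 4 groups for a head that stood apart from the others of its group by Dixon's criterion on log2(RPKM + 1), in 164 tests, of which chance would flag about 1 in 20. There were 5 such values. In heads 4 hours after training, replicate 1 was the highest for para (64.9 RPKM, others 52.2 to 55.1), tipE (14.7 RPKM, others 13.6 to 13.7), Hk (47.7 RPKM, others 39.6 to 41.3) and Lcch3 (28.9 RPKM, others 25.5 to 26.4). This head also had the highest mean of the neuronal markers in its group, 6.10 against 5.95 to 6.00 in the others. In heads 1 hour after training, replicate 1 was the lowest for sei (31.4 RPKM, others 32.3 to 32.6).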

How the results depend on the processing

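The pseudocount of 0.1, a filter on mean RPKM at 5, eBayes without trend and robust eBayes left the direction and call of each of the 78 results examined, and limma-voom moved only the calls over all genes, to 79 for starved against fed heads (159 in the fit reported) and 16 for 4 hours against 1 hour (9). With testing of all genes there were 0 calls of channel genes for 1 hour against fed heads, where KCNQ stayed at 0.38 (adjusted p = 0.0598), and 79, 34 and 227 calls over all genes for starved against fed, 1 hour against starved and 4 hours against fed heads (159, 58 and 357). With only the 2 groups compared, there were 0 channel genes for 1 hour against fed heads (KCNQ 0.38, adjusted p = 0.16), and 14, 3, 131 and 15 calls over all genes for starved against fed, 1 hour against starved, 1 hour against fed and 4 hours against 1 hour. The cause was not tested.

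Scaling decided more. The same 75th percentile gave 0 channel genes for 1 hour against fed heads (KCNQ 0.39, adjusted p = 0.0862), 25 calls over all genes for 4 hours against 1 hour, and -0.0099 for nAChRbeta2 at 1 hour against starved heads. Of the calls over all genes, those higher were 69.2% for 1 hour against starved heads (81.0% as reported), 69.2% for 4 hours against starved heads (56.8%), 62.2% for 4 hours against fed heads (50.1%) and 72.0% for 4 hours against 1 hour (33.3%). The same total RPKM moved the median of all genes against fed heads by 0.28 in starved heads, 0.25 at 1 hour and 0.30 at 4 hours. The medians of the channel genes were then 0.39, 0.37 and 0.40 and of the receptor genes 0.39, 0.35 and 0.38 in these 3 comparisons. It gave 1, 3 and 4 channel genes and 1, 2 and 3 receptor genes against fed heads, and 0 receptor genes for 4 hours against starved heads (Grd -0.38, adjusted p = 0.123). Over all genes there were 855, 2162 and 3277 calls against fed heads, of which 91.0%, 95.1% and 96.1% were higher (37.1%, 57.2% and 50.1%), and 4 for 4 hours against 1 hour. In 4 hours against starved heads 68.8% were higher. Directions turned for Ih (0.20 in starved heads, 0.12 at 1 hour, 0.15 at 4 hours) and Irk1 (0.13 in starved heads), for Irk2 (0.20), HisCl1 (0.11) and nAChRalpha1 (0.20) at 1 hour, and for Grd (0.080), nAChRalpha1 (0.20) and para (0.17) at 4 hours, all against fed heads, and for nAChRbeta2 at 1 hour against starved heads (-0.0068).

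Relative to the neuronal markers there were 0 receptor genes for 4 hours against starved heads (Grd -0.34, adjusted p = 0.0546) and 1 channel gene for 4 hours against fed heads (eag, -0.18, adjusted p = 0.0263). Over all genes 56, 370, 287, 114 and 16 were called for starved against fed, 4 hours against starved, 1 hour against fed, 4 hours against fed and 4 hours against 1 hour, and 67.8% and 38.6% of the calls for 4 hours against starved and against fed heads were higher. nAChRalpha4 (-0.088) and nAChRalpha7 (-0.070) turned in starved against fed heads. Sample quality weights gave 6, 4 and 6 channel genes for starved against fed, 4 hours against starved and 4 hours against fed heads, and 4, 2, 2, 4 and 1 receptor genes for starved against fed, 4 hours against starved, 1 hour against fed, 4 hours against fed and 4 hours against 1 hour. Over all genes they gave 1840, 157, 1883, 1679, 2737 and 466 calls, and turned Irk2 at 1 hour against fed heads (0.065), nAChRalpha6 at 4 hours (-0.059) and nAChRbeta2 at 1 hour (-0.045), both against starved heads.

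Replicate numbers did not pair the heads, since the deviations of same-numbered heads had a median correlation of -0.03 over 27 pairs. With the replicate number as a block there were 54, 9, 355, 87 and 30 calls over all genes for starved against fed, 1 hour against starved, 4 hours against starved, 4 hours against fed and 4 hours against 1 hour, nAChRalpha4 turned to -0.0073 in starved against fed heads, and Grd (-0.40, adjusted p = 0.0251) and KCNQ (0.38, adjusted p = 0.0191) kept their calls.

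Leaving out each head of the 2 groups compared in turn gave 0 to 4, 0 to 1, 0 to 3 and 0 to 1 channel genes for starved against fed, 1 hour against starved, 1 hour against fed and 4 hours against fed heads, and 0 to 2, 0 to 3 and 0 to 2 receptor genes for starved, 1 hour and 4 hours against fed heads. Without fed replicate 1, the calls against fed heads were KCNQ, Shal, unc80, nAChRalpha2, nAChRbeta2 and GluRIA at 1 hour and Irk3, nAChRbeta2 and GluRIA at 4 hours. Over all genes there were 28 to 784, 30 to 139, 290 to 803, 278 to 1655, 60 to 474 and 4 to 15 calls in the 6 comparisons. KCNQ ranged from 0.30 to 0.48 and lost its call without fed replicate 2, 3 or 6 or trained replicate 1, 3, 4 or 5. Signs changed for Irk2 at 1 hour against fed heads (-0.17 to 0.014), nAChRalpha4 (-0.068 to 0.071) and nAChRalpha7 (-0.019 to 0.075) in starved against fed heads, and nAChRalpha6 at 4 hours (-0.039 to 0.050) and nAChRbeta2 at 1 hour (-0.041 to 0.046) against starved heads. Each member had at least 581 reads in each head, the lowest being Irk3.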
